A study of Mus musculus with 8 samples.

Results

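MHC II-positive endothelial cells of transplanted mouse lungs are described here, taken as the cells that the deposited table of cells places in structural cluster 0. The cluster held 2364 cells, 42.9% of the 5514 structural cells and 11.4% of the 20778 cells of the series. Its members were chosen by the deposited cluster number alone. Left lung grafts were taken 1 month after transplantation from male B6 recipients, in 5 mice from B6 donors (B6→B6, labelled B6B6) and in 3 mice from HLA donors (HLA→B6, labelled HLAB6), B6 mice that carry the human MHC class I transgene Tg(HLA-A2.1)1Enge. No mouse received immunosuppression, each graft was 1 mouse and 1 library, and cells of the recipient can enter a graft, so a cell's origin in donor or recipient was not known. About 10000 cells per graft were loaded for droplet sequencing of transcript 3′ ends, and levels are given as unique molecular identifiers (UMIs) of a gene per 1000000 UMIs of the same cells (CPM), summed over the cluster 0 cells of each mouse.

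The lung's capillary bed is built from a pair of endothelial cell types. General capillary cells line the bed, repair it and handle lipids at their surface, whereas aerocytes are thin cells specialised for gas exchange. MHC II molecules display peptides to CD4+ T cells. They are made at high levels by B cells, macrophages and dendritic cells, and by endothelial cells after exposure to IFN-γ, through the transactivator Ciita.

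B6→B6 mice 1 to 5 gave 204, 39, 336, 71 and 18 cells of the cluster, and HLA→B6 mice 1 to 3 gave 1225, 375 and 96 cells. Depth was between 14297 and 1472157 UMIs per mouse, with a median of 1068.5 UMIs and 705 genes per cell over all members. The smallest sum was that of B6→B6 mouse 5, where 0 UMIs of a gene allow up to 209.8 CPM. Of the members, 49 (2.07%) had a barcode that also occurred in another mouse, and 4 of these had their partner in the cluster; B6→B6 mice 1, 2 and 3 and HLA→B6 mouse 2 shared more barcodes than the number of possible barcodes gives. The mitochondrial share of UMIs was 0.510, 0.663, 0.848, 1.11 and 2.81% in B6→B6 mice 1 to 5 and 1.28, 2.54 and 2.40% in HLA→B6 mice 1 to 3. B6→B6 mice 1 to 4 were thus below every HLA→B6 mouse, and the part of this in the group differences was not tested. A UMI of a T cell, B cell, leukocyte, macrophage, epithelial, erythroid or platelet gene was found in 270 of the members, and the share of such cells was 0.490, 0, 4.76, 22.5 and 5.56% in B6→B6 mice 1 to 5 and 7.43, 32.0 and 26.0% in HLA→B6 mice 1 to 3.

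The label was checked against defining genes, and many endothelial genes were high. Kdr and Erg were lower, with 4 to 110 and 0 to 11 UMIs per mouse. As means over 8 mice, the junction gene Cldn5 was at 5343 ± 922 CPM (SD), the adhesion gene Pecam1 at 1766 ± 638 CPM and the cadherin Cdh5 at 1449 ± 201 CPM, and in T cells the same genes were at 10.99, 67.9 and 4.45 CPM. Among capillary genes, members were high for many of those of general capillary cells. Gpihbp1, which anchors lipoprotein lipase to the vessel wall, was at 2498 ± 611 CPM, Plvap, a component of endothelial diaphragms, at 1482 ± 630.2 CPM, and Sema3c, a secreted guidance factor, at 1312 ± 417 CPM. The receptor Kit was at 324 ± 154 CPM and Aplnr, the apelin receptor, at 279.6 ± 317 CPM. B6→B6 mouse 5 was highest in Aplnr, with 15 of 14297 UMIs, and B6→B6 mouse 3 next, with 92 of 368463 UMIs. Of the 14 genes on this list, Glp1r and Slc6a4 were near 0, with at most 4 and 1 UMIs in any mouse.

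Of the 14 genes of aerocytes, Ednrb, Apln, Tbx2 and Fibin were low and others were not. The endothelin receptor Ednrb was at 1.66 ± 3.44 CPM, Apln, which encodes apelin, at 14.8 ± 26.6 CPM, Tbx2 at 7.65 ± 12.6 CPM and Fibin at 0.856 ± 1.63 CPM. Car4, a membrane carbonic anhydrase, was at 321 ± 133 CPM. Sparc, Cyp4b1, Igfbp7 and Prx, also on the list, were at 1091, 755, 407 and 234 CPM in cluster 0 and 264, 3711, 8457 and 920.1 CPM in cluster 2. In cluster 2 Ednrb, Apln, Tbx2, Fibin and Car4 stood at 771, 486, 418, 721 and 5196 CPM, beside 36.8 CPM of Plvap and 7.42 CPM of Kit. Clusters 1 and 2 carry the deposited name of epithelial cells, but their Pecam1 means were 1413 and 1872 CPM, with 5.97 and 0 CPM of the epithelial gene Epcam. Clusters 1, 2 and 5, the last named Vcam1+ endothelial cells, were therefore used here as the other endothelial clusters. Cluster 1 also had a mean of 695 CPM of the lymphatic gene Ccl21a, so it was not shown to be blood endothelium alone.

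Arterial genes differed among themselves in the members. Gja4 was at 274, 144 and 10.6 CPM in clusters 0, 1 and 2, and Hey1 at 278, 288 and 12.3 CPM. Gja5 and Bmx had at most 11 and 6 UMIs in any mouse of cluster 0, and Dll4 had 3 to 137. Summed over 12 artery genes the level was 2053, 1589, 1004 and 2275 CPM in clusters 0, 1, 2 and 5. Venous genes differed among themselves too, and lymphatic genes other than Lyve1 were low. Vwf was at 86.6 ± 39.0 CPM, Slc6a2 at 7.59 ± 14.4 CPM, the leukocyte-binding gene Vcam1 at 16.3 ± 22.95 CPM and Ackr1 at 0.310 ± 0.876 CPM, against 2261, 644, 858 and 134 CPM in cluster 5. Higher venous genes were Prss23 and Ephb4, at 355 and 314 CPM in cluster 0 and 1659 and 302 CPM in cluster 5. Prox1, the transcription factor that specifies lymphatic endothelium, had 0 UMIs in 2364 cells, which allows a share of up to 0.127% of cells with a UMI. In cluster 9, named Prox1+ endothelial cells, Prox1 was at 368 CPM, Mmrn1 at 1842 CPM, Reln at 461 CPM and Ccl21a at 57656 CPM in the 1 mouse that had enough cells, whereas Mmrn1, Reln and Ccl21a were at 0.911, 0.0849 and 3.74 CPM in cluster 0. Of the given markers, Lyve1, a hyaluronan receptor known from lymphatic vessels and some macrophages, therefore occurred here without the levels of Prox1, Mmrn1, Reln and Ccl21a seen in cluster 9. It was at 1326 ± 689 CPM in cluster 0, 877 ± 677 CPM in cluster 1, 1718 ± 513 CPM in cluster 5 and 967 CPM in cluster 9. Tmem100, a target of BMP signalling in arteries and capillaries, was at 3035 ± 1239.7 CPM in cluster 0 and at 1788, 1895 and 825 CPM in clusters 1, 2 and 5. Cd74, the invariant chain of MHC II, was at 7643 ± 5869 CPM in cluster 0, 5067 ± 5091 CPM in cluster 1, 531 ± 1021 CPM in cluster 2 and 5507 ± 5432 CPM in cluster 5. No test was made between clusters, since the clustering used every gene of these cells.

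**Figure D1:**
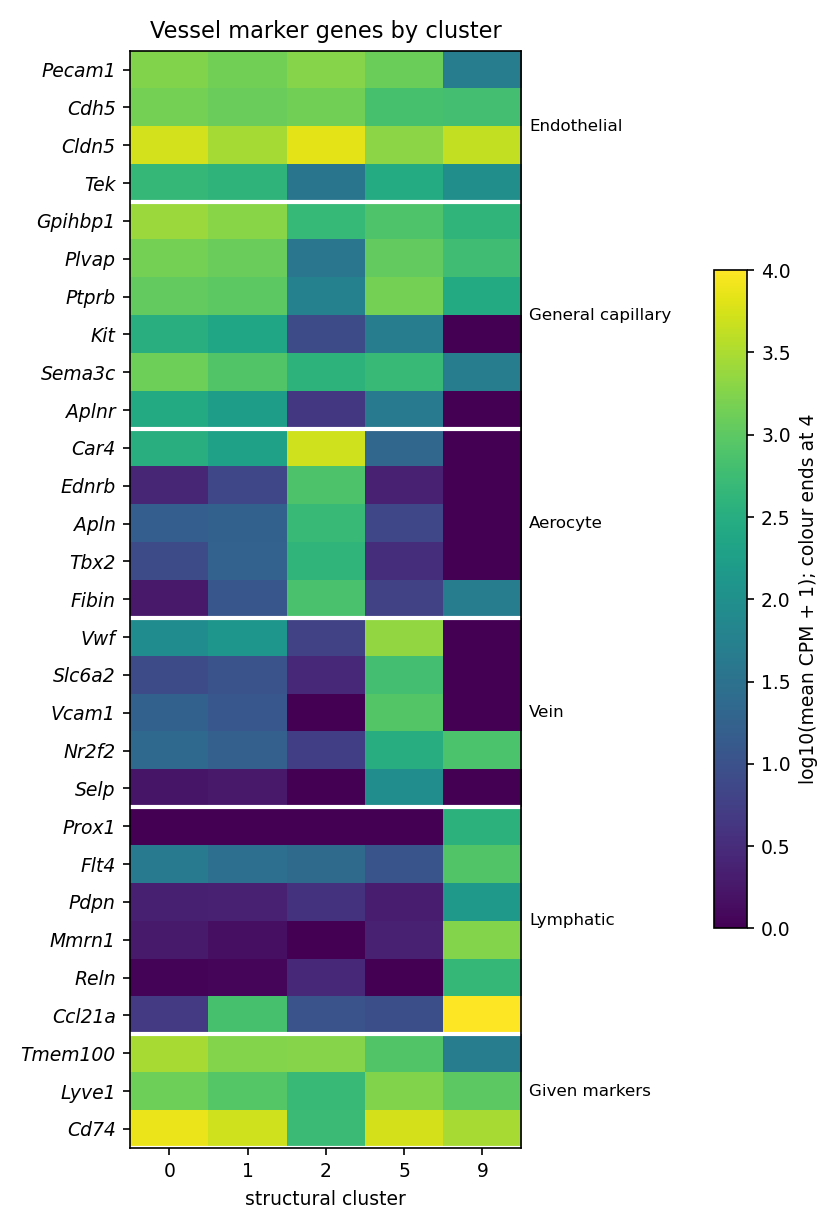
Mean CPM of vessel marker genes (log10 of CPM + 1, colour) in structural clusters 0, 1, 2, 5 and 9, over mice with at least 10 cells of the cluster (1 mouse in cluster 9). Cluster 0 was bright for endothelial and general capillary genes and dark for Prox1, Mmrn1 and Reln, which were bright in cluster 9, and for Ednrb and Fibin, which were bright in cluster 2.

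Cluster 1 also held the general capillary genes, with means of 1954 CPM of Gpihbp1 and 1229 CPM of Plvap. Among genes with a mean of at least 200 CPM in cluster 0, the highest ratios of cluster 0 to cluster 1 were those of Igtp (3.09), Ifi47 (2.94), Iigp1 (2.44), Gbp7 (2.35) and Gbp2 (2.27), all of them GTPases induced by IFN-γ. Among genes with a mean of at least 200 CPM in cluster 1, the lowest ratios were those of Ccl21a (0.00538), Fabp4 (0.0104), Ighm (0.146) and Igkc (0.157). By these means cluster 1 differed from cluster 0 in lymphatic and antibody genes too, but its mice were not alike. The summed lymphatic genes of cluster 1, with Lyve1 among them, were at 495 to 5779 CPM in B6→B6 and 537 to 1046 CPM in HLA→B6 mice. Its B and plasma cell markers were at 0 to 269 CPM in B6→B6 and 802 to 3283 CPM in HLA→B6 mice. In cluster 0 the latter were at 8.27 to 349.7 and 249.97 to 581 CPM. The median depth was 1068.5 UMIs in cluster 0 and 886 UMIs in cluster 1.

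Within cluster 0, genes of the MHC II pathway were compared between HLA→B6 and B6→B6 mice first. Clustering used these genes too, so membership may depend on them, which was not tested. The genes H2-Aa, H2-Ab1, H2-Eb1 and H2-DMa lie in the MHC region of chromosome 17, H2-Aa at chr17:34282744-34287823 on the minus strand and H2-DMa at chr17:34119541-34139101 on the plus strand (GRCm38). The 150 bases before the start of H2-Aa, chr17:34287824-34287973 on the minus strand (RefSeq, GRCm38.p6), are printed because promoters of MHC II genes carry an inverted CCAAT box, marked in capitals.
H2-Aa: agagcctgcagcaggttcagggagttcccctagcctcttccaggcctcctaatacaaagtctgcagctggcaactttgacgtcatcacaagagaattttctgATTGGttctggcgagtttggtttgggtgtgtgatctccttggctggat
Of the 9 MHC II pathway genes tested below, 6 had RefSeq windows of 250 bases before the start. In any of their windows 5 of the 6 held CCAAT on either strand, against 33.8% of all 32851 single windows. A gene with several windows has more chances of a match than a single window has. The letters are common, and a match is a description of the window, not of binding.

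All 3 chain genes were higher in every HLA→B6 mouse than in every B6→B6 mouse, but none passed the threshold of 0.05 on the adjusted p across genes. All 3 passed with no filter on low counts (adjusted p = 0.00415 for H2-Ab1, 0.0054 for H2-Aa and 0.000326 for H2-Eb1). They also passed with the replicate block over mice 1 to 3 (adjusted p = 0.0076, 0.0109 and 0.0022), and under none of the other settings. The replicate numbers did not pair the mice (correlations of deviations 0.14, -0.03 and -0.11), and the block left out B6→B6 mice 4 and 5. H2-Ab1, which encodes the β chain of the I-A molecule, was at 525, 1679.7, 1970.3, 1356 and 139.9 CPM in B6→B6 mice 1 to 5 and 2828, 3532 and 2936 CPM in HLA→B6 mice 1 to 3. The HLA→B6 mice lay within a range of 2828 to 3532 CPM, whereas B6→B6 mice 1 and 5 were far below B6→B6 mice 2, 3 and 4 (log2 fold change 1.43 ± 0.41 (SE), adjusted p = 0.159). H2-Aa, its partner α chain, was at 414, 1238, 1582, 892 and 279.8 CPM in B6→B6 mice 1 to 5 and 2129, 2578 and 2207 CPM in HLA→B6 mice 1 to 3. The same B6→B6 mice were lowest (log2 fold change 1.38 ± 0.37 (SE), adjusted p = 0.109). H2-Eb1, the β chain of I-E, was at 198, 884, 1075, 653 and 0 CPM in B6→B6 mice 1 to 5 and 1615, 1994 and 1793 CPM in HLA→B6 mice 1 to 3. Again the groups did not overlap (log2 fold change 1.60 ± 0.44 (SE), adjusted p = 0.142).

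H2-DMa, a subunit of the molecule that exchanges peptides on MHC II, rose. Its level was 78.6, 177, 263, 188 and 69.9 CPM in B6→B6 mice 1 to 5 and 453, 547 and 493 CPM in HLA→B6 mice 1 to 3. Every HLA→B6 mouse was above every B6→B6 mouse (log2 fold change 1.58 ± 0.32 (SE), adjusted p = 0.0177). The call was kept without cells that held a UMI of another cell type (log2 fold change 1.63, adjusted p = 0.0362) and was not kept without B6→B6 mouse 1 (1.28, adjusted p = 0.0663), HLA→B6 mouse 1 (1.65, adjusted p = 0.053) or HLA→B6 mouse 2 (1.49, adjusted p = 0.121). H2-DMb1, the other subunit, was at 132, 398, 434, 213 and 0 CPM in B6→B6 mice 1 to 5 and 514, 468 and 542 CPM in HLA→B6 mice 1 to 3. Its groups did not overlap either, by a margin smaller than the spread of either group (log2 fold change 0.96 ± 0.37 (SE), adjusted p = 0.414).

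Cd74 was at 1385, 7116, 9635, 3793 and 0 CPM in B6→B6 mice 1 to 5 and 13304, 17199 and 8711 CPM in HLA→B6 mice 1 to 3. HLA→B6 mouse 3 was below B6→B6 mouse 3, and B6→B6 mice spanned 0 to 9635 CPM (log2 fold change 1.60 ± 0.61 (SE), adjusted p = 0.418). Ciita was at 49.6, 88.4, 141, 37.7 and 0 CPM in B6→B6 mice 1 to 5 and 217, 245 and 39.4 CPM in HLA→B6 mice 1 to 3. HLA→B6 mouse 3 fell among the B6→B6 mice (log2 fold change 1.19 ± 0.41 (SE), adjusted p = 0.317). The proteases of the endosome did not pass, with a log2 fold change of 0.10 (adjusted p = 0.983) for Ctsl and 0.17 (adjusted p = 0.977) for Lgmn.

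Of the 18 genes of the list of MHC II presentation, 9 had enough counts to be tested. In total 1 rose (H2-DMa), 0 fell and 8 did not pass, where 0.604% of the 3645 genes tested were called higher and 0.0823% lower. All 9 fold changes were positive, with a median of 1.38 on the log2 scale, against 49.5% positive and a median of -0.00 over all genes tested. Groups did not overlap in 5 of the 9, against 2.0% of all genes tested. At an unadjusted p under 0.05 were 7 of the 9, against 7.68% of all genes.

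**Figure D2:**
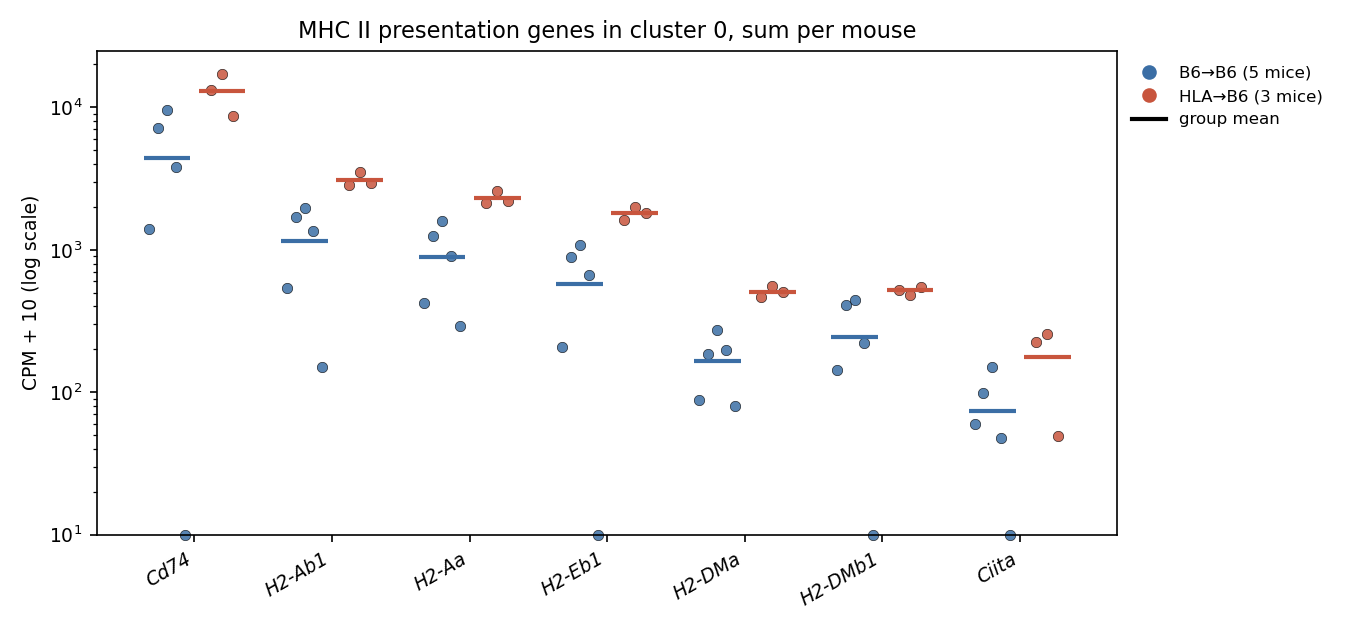
CPM + 10 (log axis) of MHC II presentation genes in cluster 0, 1 point per mouse, with bars at group means. No HLA→B6 mouse was below a B6→B6 mouse for H2-Ab1, H2-Aa, H2-Eb1, H2-DMa and H2-DMb1, and the groups overlapped for Cd74 and Ciita; points on the lower axis are mice with 0 UMIs.

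The share of members with an H2-Ab1 UMI was compared at equal depth, with cells of at least 500 UMIs thinned to 500 UMIs. Left out as shallower were 6, 2, 10, 5 and 3 members of B6→B6 mice 1 to 5 and 61, 23 and 10 members of HLA→B6 mice 1 to 3. The share was 16.6, 52.0, 53.4, 39.6 and 5.79% in B6→B6 mice 1 to 5 and 68.5, 78.1 and 63.5% in HLA→B6 mice 1 to 3. Every HLA→B6 mouse was above every B6→B6 mouse. The means were 33.5 ± 21.4% (SD, n = 5) and 70.0 ± 7.40% (SD, n = 3), a difference of 36.6 percentage points with p = 0.0357 by an exact two-sided permutation test over mice, the smallest p that 56 splits can give. Without thinning the means were 48.2 and 81.7% and the groups overlapped (exact permutation p = 0.0714). Leaving out any mouse kept the difference between 29.6 and 41.5 points, where the smallest p that can be reached is 0.0571 or 0.0952.

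The study removed free RNA with MHC II genes among its markers, and whether these counts are from before or after that step was not given. Values of T cells, which do not make MHC II in the mouse, are therefore given at the same depth without being a measure of free RNA in cluster 0. Their shares with an H2-Ab1 UMI were 0.421 ± 0.645% in B6→B6 and 0.658 ± 0.193% in HLA→B6, from a median of 1648 UMIs per cell before thinning. The other endothelial clusters also differed between groups in level, with 21.99 and 53.8% of cells in cluster 1, 17.7 and 56.7% in cluster 5 and 0.804 and 12.2% in cluster 2 in B6→B6 and HLA→B6 mice. In HLA→B6 cluster 2 the share was 0, 27.0 and 9.72% in mice 1 to 3. The mean of cluster 2, the cluster high in aerocyte genes, was below that of clusters 0, 1 and 5 in both groups.

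**Figure D3:**
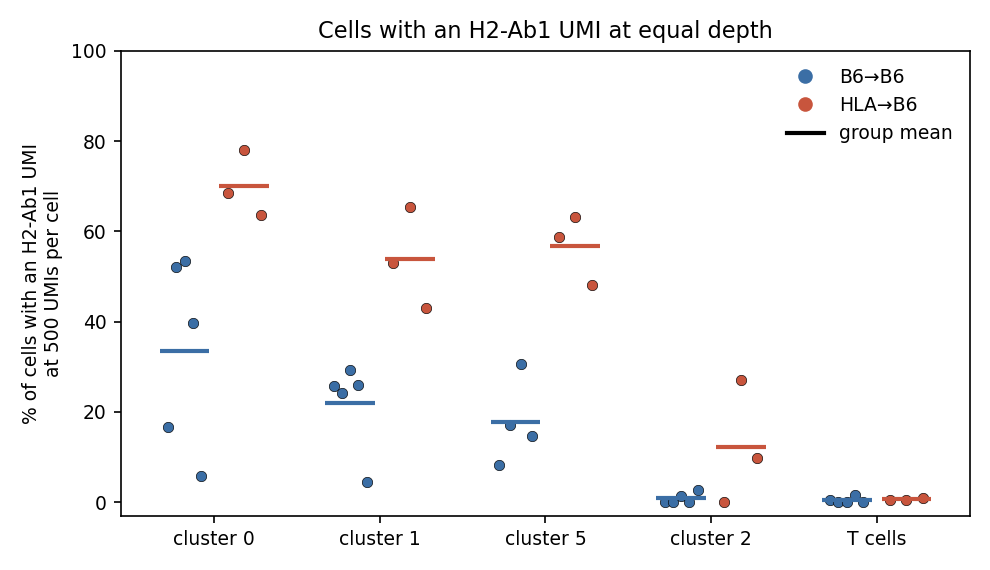
Share of cells with an H2-Ab1 UMI at 500 UMIs per cell (%) in clusters 0, 1, 5 and 2 and in T cells, 1 point per mouse, with bars at group means. In cluster 0 the 5 B6→B6 mice lay between 5.79 and 53.4% and the 3 HLA→B6 mice between 63.5 and 78.1%, while T cells of both groups lay near 0.

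Members were not alike within a mouse. At 500 UMIs per cell, a UMI of H2-Aa, H2-Ab1 or H2-Eb1 was drawn in 28.3, 70.3, 76.1, 66.7 and 20% of members of B6→B6 mice 1 to 5 and in 91.6, 94.9 and 87.2% of those of HLA→B6 mice 1 to 3. At least 3 such UMIs were drawn in 58.7, 66.8 and 53.5% of HLA→B6 members and in at most 40.5% of the members of any B6→B6 mouse. Members with a Lyve1 UMI had an MHC II UMI less often than members without one in 7 of 8 mice, by values such as 60.0 against 80.5% in B6→B6 mouse 3 and 47.1 against 73.5% in B6→B6 mouse 4; the exception was B6→B6 mouse 2, with 72.7 against 69.2%. In HLA→B6 mice 1 and 3 these shares were nearly equal, at 91.1 against 91.9% and 87.1 against 87.3%. These are counts of cells of 1 mouse each and were not tested.

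The list with most genes that rose was the IFN-γ response. Of the 36 genes on the list, 21 were tested, 10 rose, 0 fell and 11 did not pass. Over all genes tested 0.604% were called higher. The list, like the others, was chosen with earlier results of these data known. The median log2 fold change was 1.196, and the groups did not overlap in 9 of the 21, against 2.0% of all genes. The 10 were the guanylate-binding proteins Gbp2, Gbp3, Gbp4 and Gbp7, the immunity-related GTPases Igtp, Iigp1, Irgm1 and Tgtp1, which act against intracellular pathogens, and the protease inhibitors Serpina3f and Serpina3g. These families hold near-identical copies, so reads can be split between them and single members are uncertain.

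RefSeq windows of 250 bases before the start were at hand for 8 of these 10 genes. They were searched on both strands for TTCNNNGAA, the core of the interferon gamma-activated sequence called GAS, and for GAAANNGAAA, the core of the interferon-stimulated response element called ISRE. All 8 genes held one or both in any of their windows, 5 of them GAS and 6 ISRE. Of all 32851 single windows 9.66% did (GAS 7.02%, ISRE 2.98%). Some genes have several windows, which gives them more chances of a match than a single window has. Among the 11 tested list genes that did not pass, 8 had a window and 4 of these held one of the motifs. Of the 9 other genes that rose and had a window, 1 did. The 150 bases before the start of 4 of the genes are printed in the direction of transcription to show where the motifs lie, in capitals, with Gbp7 and Igtp holding both kinds and the serpins GAS alone. They are chr3:142530186-142530335 on the plus strand, chr11:58199406-58199555 on the plus strand, chr12:104214394-104214543 on the plus strand and chr12:104235997-104236146 on the plus strand (RefSeq, GRCm38.p6).
Gbp7: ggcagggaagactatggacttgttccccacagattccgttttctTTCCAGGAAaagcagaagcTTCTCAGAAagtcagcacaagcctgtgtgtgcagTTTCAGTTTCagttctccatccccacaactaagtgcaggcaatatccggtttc
Igtp: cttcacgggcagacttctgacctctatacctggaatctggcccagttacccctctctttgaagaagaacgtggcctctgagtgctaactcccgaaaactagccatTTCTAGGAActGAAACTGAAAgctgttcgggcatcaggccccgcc
Serpina3f: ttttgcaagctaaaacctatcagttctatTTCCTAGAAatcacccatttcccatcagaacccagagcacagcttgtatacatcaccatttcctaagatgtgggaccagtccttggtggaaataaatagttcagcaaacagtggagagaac
Serpina3g: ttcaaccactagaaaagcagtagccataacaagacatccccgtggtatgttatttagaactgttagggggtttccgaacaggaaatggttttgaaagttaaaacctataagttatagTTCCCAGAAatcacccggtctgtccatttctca
In Igtp the GAS began 45 bases and the ISRE 34 bases before the start, in Gbp7 the GAS copies began 106 and 87 bases and the ISRE 53 bases before it, and in Serpina3g the GAS began 33 bases before it. A match of these letters is not a shown binding site.

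The largest rise in the list was that of Serpina3f, at 12.4, 0, 8.14, 25.1 and 0 CPM in B6→B6 mice 1 to 5 and 167, 223 and 69.0 CPM in HLA→B6 mice 1 to 3. B6→B6 mice were at or near 0 and every HLA→B6 mouse was above them (log2 fold change 3.96 ± 0.47 (SE), adjusted p = 8e-05). Serpina3g was at 20.7, 66.3, 13.6, 12.6 and 0 CPM in B6→B6 mice 1 to 5 and 174, 186 and 69.0 CPM in HLA→B6 mice 1 to 3. HLA→B6 mouse 3, at 69.0 CPM, barely exceeded B6→B6 mouse 2, and the other mice lay far apart (log2 fold change 3.07 ± 0.42 (SE), adjusted p = 0.000446).

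Among the GTPases, Gbp7 was at 169.5, 265, 179, 138 and 209.8 CPM in B6→B6 mice 1 to 5 and 519, 845 and 384 CPM in HLA→B6 mice 1 to 3. The groups did not overlap, and HLA→B6 mouse 2 was highest (log2 fold change 1.76 ± 0.30 (SE), adjusted p = 0.00425). Iigp1 was at 186, 177, 171, 163 and 139.9 CPM in B6→B6 mice 1 to 5 and 501, 911 and 315 CPM in HLA→B6 mice 1 to 3. The B6→B6 mice lay within a narrow range and HLA→B6 mouse 2 was again highest (log2 fold change 1.82 ± 0.31 (SE), adjusted p = 0.00425). Igtp was at 70.3, 265, 166, 151 and 209.8 CPM in B6→B6 mice 1 to 5 and 433, 738 and 325 CPM in HLA→B6 mice 1 to 3. HLA→B6 mice 1, 2 and 3 were all above the highest B6→B6 mouse (log2 fold change 1.84 ± 0.34 (SE), adjusted p = 0.00944). Irgm1 was at 78.6, 88.4, 109, 100.5 and 69.9 CPM in B6→B6 mice 1 to 5 and 239.8, 263 and 168 CPM in HLA→B6 mice 1 to 3. It too did not overlap (log2 fold change 1.34 ± 0.26 (SE), adjusted p = 0.0138).

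Gbp2 was at 128, 243, 144, 62.8 and 419.7 CPM in B6→B6 mice 1 to 5 and 408, 1018 and 483 CPM in HLA→B6 mice 1 to 3. B6→B6 mouse 5, with the fewest cells, was level with HLA→B6 mouse 1, so the groups overlapped (log2 fold change 2.15 ± 0.37 (SE), adjusted p = 0.00446). Gbp4 (1.91 on the log2 scale, adjusted p = 0.0165), Gbp3 (2.22, adjusted p = 0.036) and Tgtp1 (1.94, adjusted p = 0.0202) overlapped as well. Of the tested members of the list that did not pass, Irgm2 had a log2 fold change of 1.20 (adjusted p = 0.0926), Ifi47 of 0.95 (adjusted p = 0.159) and Tgtp2 of 1.01 (adjusted p = 0.157), each without overlap of the groups. The receptor and its kinase did not pass, with -0.36 (adjusted p = 0.818) for Ifngr1, 0.00 (adjusted p = 0.999) for Ifngr2 and -0.15 (adjusted p = 0.966) for Jak1. Neither did Irf1, a transcription factor of the response, with -0.03 (adjusted p = 0.999).

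**Figure D4:**
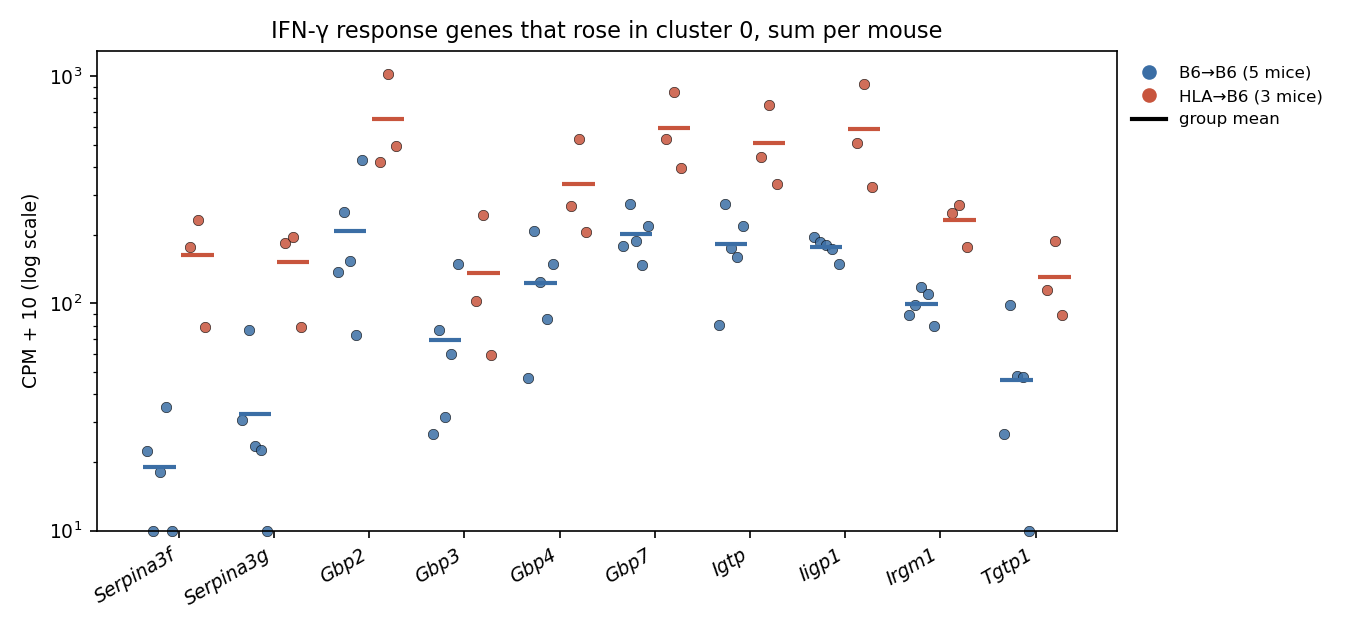
CPM + 10 (log axis) of the 10 IFN-γ response genes that rose in cluster 0, 1 point per mouse, with bars at group means. HLA→B6 mouse 2 was the highest mouse for each of the 10 genes, and the groups overlapped for Gbp2, Gbp3, Gbp4 and Tgtp1.

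Most of these calls depended on HLA→B6 mouse 2. With HLA→B6 mice 1 and 3 alone and the same 3645 genes tested, 6 genes were called higher and 1 lower, and of the list's 10 calls those of Serpina3f (3.65, adjusted p = 0.000648) and Serpina3g (2.88, adjusted p = 0.00335) were kept. Gbp7 then had a log2 fold change of 1.39, Iigp1 of 1.33 and Igtp of 1.44, with adjusted p of 0.0585, 0.0625 and 0.103. HLA→B6 mouse 2 also had the largest share of members with a UMI of another cell type, 32.0%. Without all such cells 8 of the list's genes were called. Leaving out B6→B6 mouse 1 or 3 took the list's calls to 2 and 3 of 10, with 2103 and 2113 genes left to test in place of 3645, and leaving out HLA→B6 mouse 1 took them to 5, with 2556 genes.

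At 500 UMIs per cell, the 8 called GTPase genes gave 127, 239.8 and 101 UMIs per 100 members with an MHC II UMI in HLA→B6 mice 1 to 3 and 103, 167 and 27.3 UMIs per 100 members without one. In B6→B6 mice 1 to 5 the values were 30.4, 104, 45.6, 27.3 and 33.3 with and 44.4, 36.4, 41.0, 54.5 and 100 without. HLA→B6 mice were higher among members with an MHC II UMI in all 3, and B6→B6 mice in 2 of 5. The groups of cells were as small as 3 cells in B6→B6 mouse 5, and no test was made.

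All tested genes of MHC class I presentation and of the type I interferon response had positive fold changes, against 49.5% of all genes tested. In each list 1 gene rose, where 0.604% of all genes tested were called higher. Of 21 class I genes tested (median 0.67 on the log2 scale) the 1 that rose was Tap1, which carries peptides into the endoplasmic reticulum, at 70.3, 221, 157, 37.7 and 139.9 CPM in B6→B6 mice 1 to 5 and 264, 362 and 286 CPM in HLA→B6 mice 1 to 3. Again the groups did not overlap (log2 fold change 1.44 ± 0.33 (SE), adjusted p = 0.0414). B2m, the light chain of class I molecules, had a log2 fold change of 0.67 (adjusted p = 0.414) and H2-T23 of 1.14 (adjusted p = 0.0736), both without overlap of the groups. Of 20 type I interferon genes tested (median 0.62) the 1 that rose was Zbp1, a sensor of nucleic acids, at 0, 22.1, 10.9, 12.6 and 0 CPM in B6→B6 mice 1 to 5 and 86.9, 131 and 59.1 CPM in HLA→B6 mice 1 to 3. HLA→B6 mice were all higher (log2 fold change 3.60 ± 0.52 (SE), adjusted p = 0.000694). The classical type I targets Isg15 and Ifit1 had log2 fold changes of 0.67 (adjusted p = 0.615) and 0.47 (adjusted p = 0.749).

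Co-stimulatory ligands for T cells were scarce. The co-stimulatory ligands Cd80 and Cd86 were at 0.0849 and 2.17 CPM as means over 8 mice, and Tnfsf4 and Tnfsf9 had 0 UMIs in 2364 cells. The inhibitory ligand gene Pdcd1lg2, which encodes PD-L2, had 0 UMIs as well. In B cells Cd86 was at 49.1 CPM. In cluster 0 Cd40 was at 22.6 CPM and Cd274, which encodes PD-L1, at 17.5 CPM. Cd200, an inhibitory ligand, was the highest of the list, at 442, 1635, 801, 465 and 909 CPM in B6→B6 mice 1 to 5 and 1109, 1003 and 1094 CPM in HLA→B6 mice 1 to 3. B6→B6 mouse 2 was above every HLA→B6 mouse (log2 fold change 0.48 ± 0.34 (SE), adjusted p = 0.819). Of the 19 genes of this list 6 were tested, 0 passed by edgeR and 0 had an unadjusted p under 0.05. DESeq2 made 12 calls in all, each of them among the 25 genes called by edgeR, so lists without a call by edgeR had none by DESeq2 either.

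A further 9 genes rose outside these lists. Of 4 chemokine and chemokine receptor genes tested 1 rose, and of 9 coagulation and fibrinolysis genes 1 rose. Over all genes tested 0.604% were called higher. Ackr3, a scavenging receptor for the chemokine Cxcl12, was at 169.5, 155, 117, 176 and 209.8 CPM in B6→B6 mice 1 to 5 and 407, 495 and 256 CPM in HLA→B6 mice 1 to 3. HLA→B6 mice were all above B6→B6 mice (log2 fold change 1.44 ± 0.28 (SE), adjusted p = 0.012), while Cxcl12 itself had a log2 fold change of -0.17 (adjusted p = 0.977). Plaur, the receptor of urokinase, was at 194, 111, 182, 188 and 279.8 CPM in B6→B6 mice 1 to 5 and 342, 374 and 453 CPM in HLA→B6 mice 1 to 3. The groups did not overlap (log2 fold change 1.12 ± 0.26 (SE), adjusted p = 0.0399). Ddah1, which degrades an inhibitor of nitric oxide synthase, rose by 1.41 on the log2 scale, the cell cycle gene Ccnd1 by 1.42, Samhd1, which breaks down nucleotides, by 1.32, and Sdf2l1, a chaperone cofactor of the endoplasmic reticulum, by 1.59, with adjusted p between 0.0256 and 0.0399.

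The other 3 of the 9 are abundant in other cell types. Igkc, the constant part of the κ antibody chain made by B and plasma cells, was at 0, 0, 0, 0 and 0 CPM in B6→B6 mice 1 to 5 and 129.7, 144 and 355 CPM in HLA→B6 mice 1 to 3. With 0 UMIs over all B6→B6 members and 285 UMIs over HLA→B6 members, it was 36.0-fold above a floor of 3 counts over the B6→B6 group. That floor covers counting error only. The study had Igkc among its markers of free RNA, so the value is no lower bound if such RNA was removed from these counts. In T cells, which do not make it, Igkc was at 351, 80.7 and 27.6 CPM in HLA→B6 mice and at 0 to 16.3 CPM in B6→B6 mice. Hba-a1, a globin of erythrocytes, was at 0, 0, 100.4, 0 and 0 CPM in B6→B6 mice 1 to 5 and 617, 156 and 679.9 CPM in HLA→B6 mice 1 to 3, with 0 in 4 of the 5 B6→B6 mice (log2 fold change 3.50 ± 0.62 (SE), adjusted p = 0.00497). AW112010, a long noncoding RNA, was at 0, 44.2, 0, 50.2 and 0 CPM in B6→B6 mice 1 to 5 and 74.0, 535 and 227 CPM in HLA→B6 mice 1 to 3 (log2 fold change 4.99 ± 0.85 (SE), adjusted p = 0.00425), and it stood at 1486 CPM in T cells and 2501 CPM in cluster 2 as means over 8 mice.

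Genes of other cell types were present in the sums. The summed level of 12 B and plasma cell markers was 8.27 to 349.7 CPM in B6→B6 and 249.97 to 581 CPM in HLA→B6, that of 20 macrophage, monocyte and dendritic markers 0 to 276 and 156 to 726 CPM, and that of 9 erythrocyte and platelet markers 0 to 1819 and 426 to 4769 CPM. The sums of 15 T and NK cell markers were 20.7 to 201 and 59.1 to 129 CPM, and of 13 epithelial markers 44.2 to 1419 and 463 to 1337 CPM. The sums of 3 of these 5 lists reached higher values in HLA→B6. Some defining markers of leukocytes and epithelium were low and others were not. As means over 8 mice, Ptprc was at 16.5, Csf1r at 2.00, Cd79a at 4.56, Ms4a1 at 0.479, Cd3e at 3.28, Epcam at 1.07 and C1qa at 11.2 CPM. The macrophage gene Lyz2 was at 114 CPM, with 157 UMIs in HLA→B6 mouse 2 and 0 in B6→B6 mice 1, 2, 3 and 5. Scgb1a1, of club cells, had 78 of 79630 UMIs in B6→B6 mouse 4 and 1579 of 1472157 in HLA→B6 mouse 1. It had 0 UMIs in B6→B6 mice 2 and 5. B cells had 31916 CPM of Cd74 and cluster 0 had 7643 CPM. Of 10 RNA quality genes, 9 had positive fold changes (median 0.96), 7 had an unadjusted p under 0.05 and 0 passed, the negative one being Malat1. Over all genes tested 49.5% were positive and 7.68% had an unadjusted p under 0.05. The study listed MHC II genes, Igkc, Hba-a1, Lyz2 and Scgb1a1 among its markers of free RNA. Their part in the group differences was not tested.

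Genes called lower were 3, which is 0.0823% of all genes tested, and 1 of them was among the 11 Notch signalling genes tested. Lfng, a glycosyltransferase that modifies Notch receptors, was at 248, 332, 155, 213 and 139.9 CPM in B6→B6 mice 1 to 5 and 76.1, 76.8 and 118 CPM in HLA→B6 mice 1 to 3. Every HLA→B6 mouse was below every B6→B6 mouse, as in 2.52% of all genes tested (log2 fold change -1.32 ± 0.29 (SE), adjusted p = 0.036). Sgk1, a kinase induced by glucocorticoids, was at 389, 199, 426, 414 and 209.8 CPM in B6→B6 mice 1 to 5 and 180.0, 109 and 138 CPM in HLA→B6 mice 1 to 3. HLA→B6 mice were lower throughout (log2 fold change -1.26 ± 0.29 (SE), adjusted p = 0.0432). Tcim was at 492, 354, 513, 352 and 69.9 CPM in B6→B6 mice 1 to 5 and 159, 166 and 78.8 CPM in HLA→B6 mice 1 to 3. B6→B6 mouse 5 overlapped with the HLA→B6 mice (log2 fold change -1.46 ± 0.33 (SE), adjusted p = 0.036). None of the 3 was called without cells holding a UMI of another type, where Sgk1 had a log2 fold change of -1.10, adjusted p = 0.134, Lfng of -1.31, adjusted p = 0.0602 and Tcim of -1.45, adjusted p = 0.0596.

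No gene of the general capillary or endothelial identity lists passed by edgeR. In each list 1 gene had an unadjusted p under 0.05, against 7.68% of all genes tested. Of 19 identity genes tested 8 were positive (median -0.07), and Tmem100 was at 4053, 4597, 3791, 3729.8 and 1119 CPM in B6→B6 mice 1 to 5 and 2817, 1491 and 2680.3 CPM in HLA→B6 mice 1 to 3. HLA→B6 mouse 2 and B6→B6 mouse 5 were lowest (log2 fold change -0.54 ± 0.36 (SE), adjusted p = 0.807). Of 12 general capillary genes tested 2 were positive, with a median of -0.22 and with log2 fold changes of -0.04 (adjusted p = 0.999) for Gpihbp1 and -0.78 (adjusted p = 0.69) for Aplnr. Lyve1 was at 2146, 839.8, 613, 716 and 2378 CPM in B6→B6 mice 1 to 5 and 1319, 1761 and 838 CPM in HLA→B6 mice 1 to 3. B6→B6 mice 1 and 5, the mice of lowest H2-Ab1, were the highest in Lyve1 (log2 fold change 0.15 ± 0.38 (SE), adjusted p = 0.983).

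Most genes of VEGF, angiopoietin and BMP signalling and most immediate early and heat shock genes had negative fold changes, and none passed by edgeR or DESeq2. At an unadjusted p under 0.05 were 3 of 19 and 9 of 18, against 7.68% of all genes tested. Of 19 genes of VEGF, angiopoietin and BMP signalling 4 were positive (median -0.33), with -1.2 (adjusted p = 0.287) for Id2, -0.75 (adjusted p = 0.364) for Id3 and -1.02 (adjusted p = 0.24) for Smad6. Of 18 immediate early and heat shock genes 3 were positive (median -0.75). Fos was at 434, 199, 0, 113 and 0 CPM in B6→B6 mice 1 to 5 and 15.6, 0 and 29.6 CPM in HLA→B6 mice 1 to 3. B6→B6 mice 3 and 5 were at 0, as was HLA→B6 mouse 2 (log2 fold change -3.74 ± 0.91 (SE), adjusted p = 0.0605). Egr1 had a log2 fold change of -4.32 (adjusted p = 0.0605) and Junb of -1.46 (adjusted p = 0.18).

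Further genes of lowest p among those lower in HLA→B6 did not pass the threshold. They were Car14 with -1.29 (adjusted p = 0.0516), Cyp1a1 with -1.71 (adjusted p = 0.0605), Emp2 with -2.72 (adjusted p = 0.0605), Dhrs3 with -1.51 (adjusted p = 0.0661), Slc26a10 with -2.57 (adjusted p = 0.0736) and St5 with -1.23 (adjusted p = 0.0936) on the log2 scale.

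Whether the group difference in cluster 0 differed from that in the other endothelial clusters was tested as an interaction, with clusters 1, 2 and 5 summed per mouse. Of 5061 genes tested, 7 were called more positive in cluster 0 (0.138%) and 0 less positive by edgeR, with 328 (6.48%) at an unadjusted p under 0.05 and 3 and 0 called by DESeq2. The IFN-γ genes that rose in cluster 0 did not pass the test of the interaction, with -0.04 ± 0.33 (SE), adjusted p = 1, for Gbp2, 0.05 ± 0.40 (SE), adjusted p = 1, for Igtp, -1.11 ± 0.62 (SE), adjusted p = 0.821, for Gbp3 and 2.09 ± 0.70 (SE), adjusted p = 0.311, for Serpina3f, whose rise was the largest of the list. In the other clusters the log2 fold changes of Gbp2 and Igtp were 2.22 and 1.91. Chain genes of MHC II had negative interactions that did not pass, with -1.28 ± 0.32 (SE), adjusted p = 0.0823 for H2-Ab1 and -1.44 ± 0.35 (SE), adjusted p = 0.0696 for H2-Eb1. Their log2 fold changes were 2.76 (adjusted p = 0.00118) and 2.998 (adjusted p = 0.00118) in clusters 1, 2 and 5, from group means of 259 and 1840.2 CPM for H2-Ab1. Markers of leukocytes moved with them in cluster 1, where the summed level of macrophage, monocyte and dendritic markers was 0 to 531 CPM in B6→B6 and 1299 to 5027 CPM in HLA→B6 mice and that of B and plasma cell markers 0 to 269 and 802 to 3283 CPM. The make-up of the comparison cells differed as well. Cluster 2, with 173 CPM of H2-Ab1 against 1262 and 1289 CPM in clusters 1 and 5, held 29.3 to 71.0% of their UMIs in B6→B6. In HLA→B6 it held 6.97 to 44.2%. The part of the leukocyte markers and of the make-up in the result was not tested. A rise that was called in the other clusters and not in cluster 0 was thus not shown to differ from it.

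The 7 genes that passed were AW112010 (4.99 ± 0.60 (SE), adjusted p = 6.24e-07), Cyp4b1 (1.77 ± 0.30 (SE), adjusted p = 0.000858), Rgs12 (1.76 ± 0.38 (SE), adjusted p = 0.0206) and, named after their values were seen, Kdr (0.27 in cluster 0 and -1.203 in the others), Plaur (1.12 and -0.41), Icam1 (0.50 and -0.71) and Tmem204 (-0.22 and -1.48). Cyp4b1, a cytochrome P450, had a log2 fold change of -0.12 in cluster 0 and -1.77 in the others. Cluster 2 held 51.5, 61.0, 71.0, 29.3 and 52.9% of the UMIs of the comparison cells in B6→B6 mice 1 to 5 and 6.97, 44.2 and 22.6% in HLA→B6 mice 1 to 3. Kdr, the main VEGF receptor, was at 856 CPM in cluster 2 and 131 CPM in cluster 0. Against cluster 1 alone 0 genes were called by edgeR, with 93 at an unadjusted p under 0.05.

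**Figure D5:**
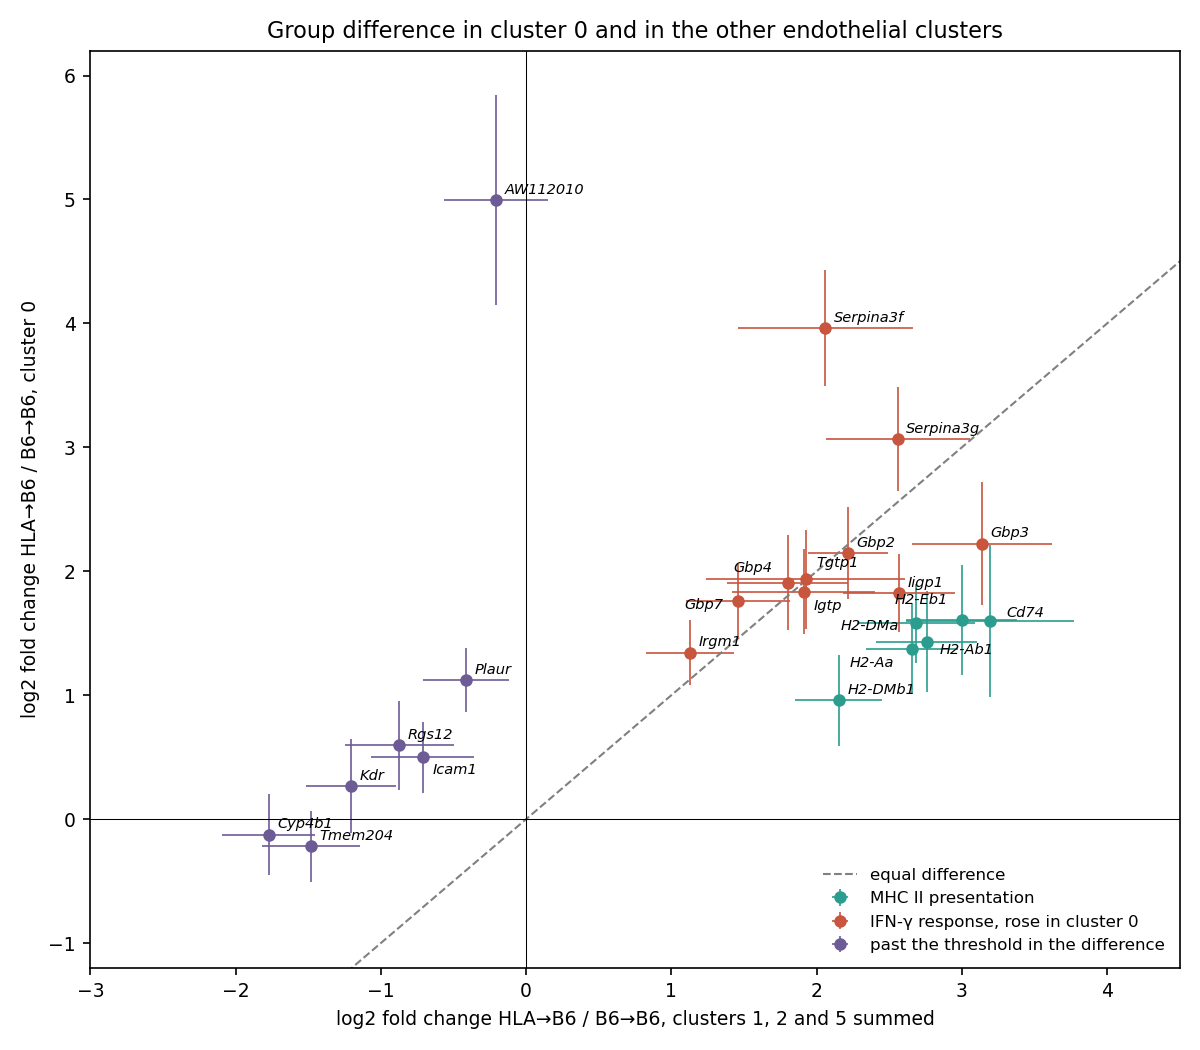
Log2 fold change of HLA→B6 over B6→B6 in cluster 0 (vertical) against that in clusters 1, 2 and 5 summed (horizontal), with SE bars. Both axes use the same mice. H2-Aa, H2-Ab1, H2-Eb1, H2-DMa, H2-DMb1 and Cd74 lay below the dashed line of equal difference, most IFN-γ genes near it and the 7 genes past the threshold above it, with Cyp4b1 at -0.12 in cluster 0 and -1.77 in the others.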

How the data were processed

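Single cells of 8 grafts were counted by the authors with Cell Ranger on mm10 (GRCm38) and clustered with Seurat. The deposited counts are whole UMIs per gene and cell with no normalization. The authors excluded barcodes under 200 UMIs and genes in fewer than 3 cells (17 cells in the table were under 200) and removed free RNA with SoupX; whether the counts are from before or after SoupX was not given in the sources used here. How doublets were treated was not given either, and no caller was run. Genes numbered 17921. Cell names number the HLA→B6 mice otherwise than the sample column does; the sample column, which matches the labels, was used.

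Counts were summed per mouse over cluster 0 cells (at least 10 per mouse), scaled by TMM, filtered by filterByExpr (minimum count 10) and tested with edgeR (quasi-likelihood F, Benjamini-Hochberg adjustment over all genes tested, threshold 0.05; edgeR 4.0.16, R 4.3.3), checked on simulated data. The mouse was the replicate. The interaction used the mouse as a block. Shares of cells were the expected shares on thinning to 500 UMIs, compared by an exact permutation test. Alternatives were DESeq2 1.42.0, RLE factors, no filter, other cell minimums and depths, left-out cells and mice, and blocks. Genes named were, by a written rule, the tested MHC II genes, the given markers, Prox1 and Pecam1, the 10 genes of largest change in each direction among calls without overlap (filled up by smallest p), called members of each list or its highest member, and the 3 largest interactions in each direction; other names were chosen after their values were seen. Members and lists were chosen with earlier results of these data known. Promoter windows came from RefSeq (GRCm38.p6), gene positions from GENCODE on GRCm38. Intervals and floors cover counting error only.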

Additional observations from a re-analysis of the deposited data

Results flagged for a closer look

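In 4 values of cluster 0, 1 mouse of the 5 B6→B6 mice stood far from the others; 68 genes were looked at, and chance gives about 5% of them. Tmem100 was at 1119 CPM in B6→B6 mouse 5, against 3730 CPM or more in the others, and Pecam1 was at 3287 CPM in the same mouse, against at most 1538 CPM. That mouse had 18 members and 14297 UMIs. Hba-a1 was at 100.4 CPM in B6→B6 mouse 3 and at 0 in the others, and Lyz2, a macrophage gene, at 200.9 CPM in B6→B6 mouse 4 and at 0 in the others. The part of sampling and of RNA from other cells in these values was not tested.

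For 7 genes the difference between HLA→B6 and B6→B6 was not the same in cluster 0 as in clusters 1, 2 and 5, by the test of the interaction. As differences of log2 fold changes these were 4.99 for AW112010, 1.77 for Cyp4b1, 1.76 for Rgs12, 1.65 for Kdr, 1.53 for Plaur, 1.44 for Icam1 and 1.40 for Tmem204. None passed against cluster 1 alone, and the share of cluster 2 in the comparison cells differed between the groups (29.3 to 71.0% of UMIs in B6→B6 and 6.97 to 44.2% in HLA→B6).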

How the results depend on the processing

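Under other settings the 25 genes called in cluster 0 kept their direction in each of 450 values, and 131 of these were no longer past the threshold. Main counts were 22 higher and 3 lower. DESeq2 gave 11 and 1, no filter on low counts 101 and 14, at least 20 cells per mouse 33 and 5, members without a UMI of another type 14 and 0, 18 cells in each mouse 0 and 0 (366 genes tested, 31 at an unadjusted p under 0.05), and the set of libraries sharing barcodes as a block 22 and 0. Leaving out 1 mouse gave between 2 and 40 higher and between 0 and 12 lower; the 2 were Igkc and Hba-a1 without HLA→B6 mouse 2, with 2527 genes tested. Without B6→B6 mouse 1 the counts were 5 and 1, without B6→B6 mouse 3 they were 6 and 2, without HLA→B6 mouse 1 they were 10 and 0, and without HLA→B6 mouse 3 they were 40 and 12. Of 2 settings chosen after seeing the data, HLA→B6 mice 1 and 3 with the same genes tested gave 6 and 1, and mice 1 to 3 of both groups gave 32 and 1.

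The replicate block over mice 1 to 3 gave 53 higher and 18 lower. The numbers did not pair the mice (correlations of deviations 0.14, -0.03 and -0.11). With the replicate block the log2 value of H2-Ab1 was 1.41, adjusted p = 0.0076. With no filter it was 1.56, adjusted p = 0.00415.

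The interaction, 7 more positive and 0 less positive, became 3 and 0 with DESeq2, 11 and 2 with no filter, 2 and 5 against cluster 2 alone and 0 and 0 against cluster 1 alone. Leaving out 1 mouse gave between 1 and 22 more positive and between 0 and 20 less positive, with 1 and 0 without HLA→B6 mouse 1, 22 and 6 without HLA→B6 mouse 2, 2 and 0 without B6→B6 mouse 3 and 18 and 20 without B6→B6 mouse 4.

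The difference in the share of cells with an H2-Ab1 UMI, 36.6 points, was 29.9 at 300 UMIs, 31.9 at 1000 UMIs (exact permutation p = 0.0571 with 4 and 3 mice), 33.5 with no thinning (exact permutation p = 0.0714) and 29.6 with at least 20 cells per mouse (exact permutation p = 0.0571, the smallest possible). Leaving out 1 mouse gave 29.6 to 41.5.

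Fold changes of 16 genes that were not called turned in sign, in 55 values; their main values lay between -0.22 and 0.27 but for Scgb1a1, at 0.57. With equal cells per mouse the log2 fold change was -0.038 for Lyve1 and -0.16 for Pecam1. With HLA→B6 mice 1 and 3 alone the log2 fold change was -0.14 for Lyve1, -0.0050 for Pecam1, 0.037 for Cldn5, 0.14 for Cd36, 0.047 for Klf2 and -0.024 for Cyba. With the block of libraries sharing barcodes the log2 fold change was -0.011 for Pecam1, 0.13 for Gpihbp1, 0.14 for Klf2, 0.26 for Nfkbia and -0.59 for Scgb1a1. With no filter the log2 fold change was 0.015 for Cldn5, 0.10 for Gpihbp1, 0.062 for Cd36, 0.059 for Klf2, 0.12 for Nfkbia and 0.022 for Cyp4b1. With at least 20 cells per mouse the log2 fold change was 0.069 for Cd36 and -0.012 for Tubb5. With the replicate block the log2 fold change was 0.040 for Cd36 and -0.0090 for Cr1l. In mice 1 to 3 without the block the log2 fold change was 0.040 for Cd36 and -0.051 for Cr1l. Without members with a UMI of another type the log2 fold change was -0.19 for Cr1l. Leaving out 1 mouse took it from -0.11 to 0.26 for Ctsl, -0.089 to 0.66 for Lgmn, -0.15 to 0.48 for Lyve1, -0.084 to 0.23 for Pecam1, -0.21 to 0.026 for Cldn5, -0.16 to 0.15 for Gpihbp1, -0.23 to 0.12 for Cd36, -0.037 to 0.18 for Cr1l, -0.30 to 0.045 for Klf2, -0.28 to 0.21 for Nfkbia, -0.076 to 0.36 for Tubb5, -0.028 to 0.36 for Cyba, -1.88 to 1.54 for Scgb1a1, -0.37 to 0.090 for Cyp4b1, -0.10 to 0.68 for Kdr and -0.39 to 0.040 for Tmem204. The causes were not tested. Depth limits B6→B6 mouse 5 most, with 18 cells and 14297 UMIs.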

Other observations

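Other groups of genes in cluster 0 had no member past the threshold, with 0 calls by edgeR or DESeq2 in each. Counts at an unadjusted p under 0.05 stand beside 7.68% of all genes tested. In the barrier and junction list 15 genes were tested and 0 had an unadjusted p under 0.05, and the junction gene Cldn5 was at 5872, 5039, 5352, 5212 and 6855 CPM in B6→B6 mice 1 to 5 and 5195, 3567 and 5656 CPM in HLA→B6 mice 1 to 3. Its groups overlapped (log2 fold change -0.13 ± 0.25 (SE), adjusted p = 0.975). Of 10 vascular tone genes 0 had an unadjusted p under 0.05, and Ramp2, a receptor subunit for adrenomedullin, had the highest level, with a log2 fold change of -0.32 (adjusted p = 0.857). Aqp1, a water channel, was highest of the 5 lipid and transport genes tested with -0.35 (adjusted p = 0.838), and the fatty acid transporter Cd36 had -0.09 (adjusted p = 0.986). Of 9 matrix genes 3 had an unadjusted p under 0.05, and Sparc was highest with 0.54 (adjusted p = 0.731). Of 8 artery genes 1 had an unadjusted p under 0.05, and Sox17, an arterial transcription factor, was lower in every HLA→B6 mouse, at 447, 553, 551, 465 and 419.7 CPM in B6→B6 mice 1 to 5 and 357, 344 and 266 CPM in HLA→B6 mice 1 to 3 (log2 fold change -0.52 ± 0.25 (SE), adjusted p = 0.655).

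Of 11 hypoxia and glycolysis genes 0 had an unadjusted p under 0.05, and Epas1, a hypoxia-inducible factor, had a log2 fold change of -0.43 (adjusted p = 0.791). The 3 complement and Fc genes tested had 0 at an unadjusted p under 0.05, with 0.04 (adjusted p = 0.999) for the complement regulator Cr1l. Of 6 NF-κB targets and 5 cell cycle genes 0 had an unadjusted p under 0.05, with -0.02 (adjusted p = 0.999) for Nfkbia and 0.11 (adjusted p = 0.985) for Tubb5. Klf2, a factor induced by flow, was highest of the immediate early list, at 5645, 4685, 5952, 2964 and 3357 CPM in B6→B6 mice 1 to 5 and 5245, 3349 and 3705 CPM in HLA→B6 mice 1 to 3. Its groups overlapped (log2 fold change -0.08 ± 0.30 (SE), adjusted p = 0.986). Of 8 leukocyte adhesion genes and 5 hyaluronan and scavenger receptor genes tested 0 had an unadjusted p under 0.05. Of 4 venous genes tested Prss23 was highest with 0.24 (adjusted p = 0.939), and 1 of the 4 had an unadjusted p under 0.05. Among genes of other cell types, Cyba had a log2 fold change of 0.18 (adjusted p = 0.957), Lyz2 of 3.19 (adjusted p = 0.152) and Scgb1a1, of club cells, of 0.57 (adjusted p = 0.941).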
